A study of Phaseolus coccineus with 4 samples.

Results

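AFB3B and TIR1C are the genes of the TIR1/AFB family of auxin receptors that the array annotation names. They were found by symbol, 2 of 6029 genes with a symbol, taking every soybean probe set whose single gene symbol begins with TIR1 or AFB. The search gave 3 probe sets, 2 for AFB3B and 1 for TIR1C, among 37593 soybean probe sets, of which 8677 carry 1 symbol. No other TIR1 or AFB symbol is among them, and 7001 of those 8677 probe sets carry a placeholder symbol that names no function, so other members of the family may lie among the unnamed probe sets.

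TIR1/AFB proteins are F-box proteins, the subunits by which an SCF ubiquitin ligase recognises its substrate. Auxin fits between the receptor and an Aux/IAA protein, the Aux/IAA protein is ubiquitinated and degraded, and the auxin response factors that it held back act on their target genes. In Arabidopsis, auxin moved by PIN carriers between suspensor and embryo proper helps to set the axis of the early embryo, and the receptor genes belong to a small family with overlapping functions. The symbols used here are those of soybean genes and do not show which bean gene a signal comes from.

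The material was the scarlet runner bean, Phaseolus coccineus, cultivar Hammond's Dwarf Red Flower, 6 days after hand pollination, with no treatment or mutation in any group. Suspensor, the stalk that carries the embryo, and embryo proper, the part that becomes the plant, were each cut by laser from sections of globular-stage embryos in 2 biological replicates. The labels do not say which plants the replicates came from, so a p-value measures only the spread between these samples. RNA was amplified and hybridised to a soybean array, so a mismatch between bean transcript and soybean probe weakens a signal, and dim probe sets say little about how much transcript was present. In tissue samples of this kind, fewer cells with a transcript and less transcript per cell cannot be told apart.

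The input of total RNA was about 106 and 137 ng for suspensor replicates 1 and 2, against 60 and 75 ng for embryo proper replicates 1 and 2, so input and region cannot be told apart. The bacterial control probe sets BioB, BioC, BioDn and CreX had median signals of 89954 and 153044 on the suspensor arrays and 42283 and 53752 on the embryo proper arrays. Replicates correlated over the 8972 tested probe sets with a Pearson r of 0.81 in suspensor and 0.888 in embryo proper, as a description of the arrays. Of the region markers with a symbol, 11 probe sets of PSAD, CAB3 and LEC1-A had summed signals of 10281 and 8908 in suspensor against 25438 and 34478 in embryo proper. In that sum, 1 PSAD probe set had 733 and 734 in suspensor against 11947 and 17685 in embryo proper. Of the 11, 6 were below background on all 4 arrays and 5 were tested. Called lower in suspensor (limma adjusted p under 0.05) were 2 of the 5, against 1.86% of all tested probe sets. The gene lists were chosen with earlier results of these data known, so counts of markers called are only a description. Another tested PSAD probe set had a positive difference, 0.37. The seed transcription factor LEC1-A was below background on all 4 arrays. The suspensor list, made of 21 probe sets for gibberellin-related genes, summed to 106339 and 86273 in suspensor against 26905 and 26508 in embryo proper, and most of the suspensor sum came from 1 GASA14 probe set, at 87492 and 67857. Without it the other 20 probe sets summed to 18847 and 18416 in suspensor against 16236 and 15075 in embryo proper. Of the 7 tested in that list, that GASA14 probe set alone was called higher in suspensor (limma adjusted p under 0.05). Of all tested probe sets, 0.892% were called higher. A positive difference was seen in 4, among them GASA32, not called, with 6849 and 5648 in suspensor against 2618 and 2930 in embryo proper. The other 3 had a negative difference, among them GASA4 with 965 and 648 in suspensor against 1891 and 1778 in embryo proper. By call, the list marks suspensor by 1 probe set. WOX2, WOX8 and WOX9, which mark these regions in Arabidopsis, and markers of endosperm and vascular tissue matched no symbol. The seed coat markers SCB1 and ANR1 were below background on all 4 arrays. Neither spike signal, input nor marker level was tested for a part in the receptor values below.

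The brighter of the 2 AFB3B probe sets gave a clear signal. AFB3B is named after the Arabidopsis auxin receptor AFB3. Its signal was 5280 and 4101 in suspensor replicates 1 and 2, against 14591 and 20660 in embryo proper replicates 1 and 2. Both suspensor signals lay below both embryo proper signals, and all 4 stood above the background level of their array, the 95th percentile of the Phytophthora and nematode probe sets it also carries. The suspensor arrays averaged 4691 ± 834 (SD, n = 2) and those of embryo proper 17626 ± 4292 (SD, n = 2). This was a 3.72-fold higher level in embryo proper and a difference of -1.90 for suspensor minus embryo proper on the log2(intensity + 16) scale. Taken array by array, embryo proper exceeded suspensor by at least 2.76-fold and at most 5.04-fold.

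Relative to background, the same AFB3B probe set stood at 5.71 and 3.97 times the background level on the suspensor arrays and at 16.6 and 23.7 times on the embryo proper arrays. Ranks within an array do not depend on how arrays are scaled to each other. By rank, 1407 and 1374 soybean probe sets were brighter than AFB3B on the suspensor arrays, against 563 and 445 on the embryo proper arrays. AFB3B thus lay at the 96.3 percentile of soybean probe sets on both suspensor arrays and at the 98.5 and 98.8 percentiles on the embryo proper arrays.

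TIR1C, named after TIR1, the auxin receptor first characterised in Arabidopsis, was read by 1 probe set. Its signal was 1058 and 115 in suspensor replicates 1 and 2, against 3670 and 3802 in embryo proper replicates 1 and 2. Both suspensor signals again lay below both embryo proper signals, but they were far from each other. Suspensor replicate 1 stood at 1.14 times its background level and suspensor replicate 2 at 0.111 times, below background, while embryo proper stood at 4.17 and 4.36 times. The suspensor arrays averaged 587 ± 667 (SD, n = 2) and those of embryo proper 3736 ± 93.3 (SD, n = 2). The log2 difference, suspensor minus embryo proper, was -3.32 as fitted. Since 1 of the 2 suspensor signals was not above background, no fold is taken from that value.

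The size of the TIR1C difference rests on suspensor replicate 2. Without that array the log2 difference was -1.80, a 3.49-fold higher level in embryo proper. Without suspensor replicate 1 it was -4.84, a value set against a single signal below background. When each signal under background was raised to the background level of its array, a setting chosen after the TIR1C signals were seen, the difference was -1.82, or 3.53-fold higher in embryo proper. Leaving out embryo proper replicate 1 or 2 gave -3.35 and -3.30. By rank, 7028 and 27250 soybean probe sets were brighter than TIR1C on the suspensor arrays, against 2009 and 1966 on the embryo proper arrays. With background at the 99th percentile, TIR1C was above it on both embryo proper arrays and on neither suspensor array, while AFB3B remained above it on all 4. The suffix of the TIR1C identifier marks probes shared among transcripts, so the signal may come from more than 1 of them.

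**Figure D1:**
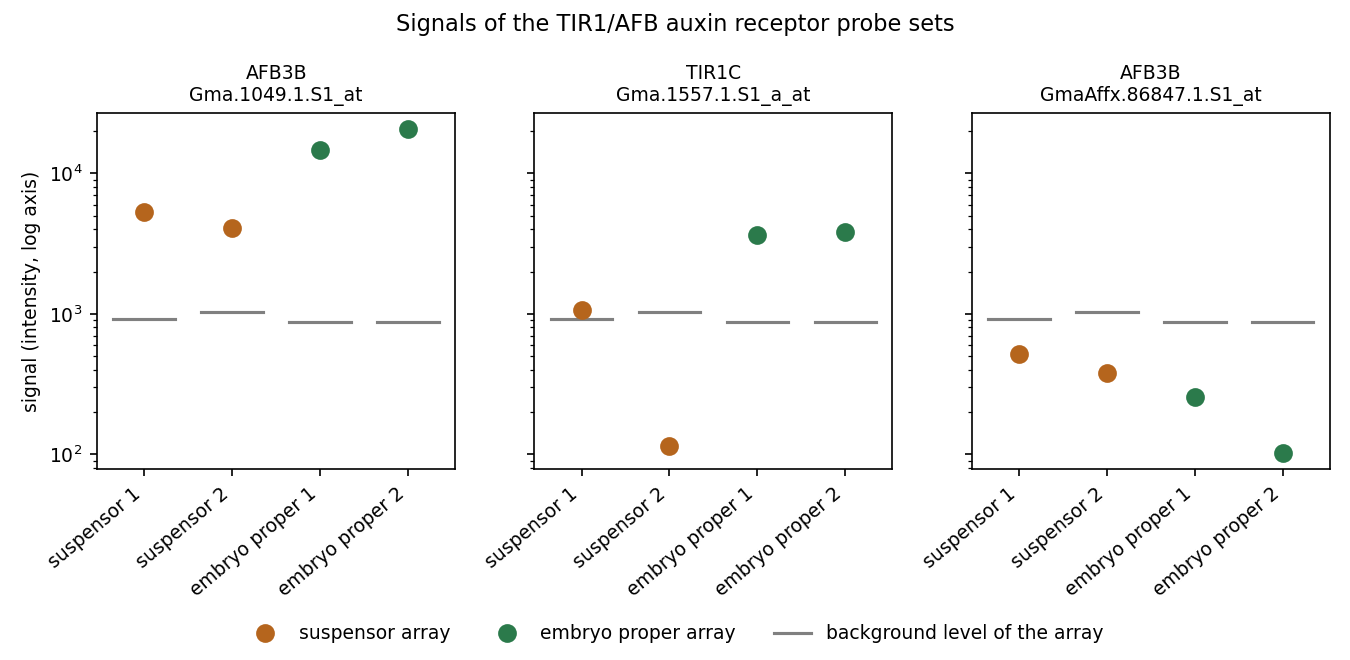
Signal of the 3 receptor probe sets on each array (intensity, log axis), with suspensor arrays in brown, embryo proper arrays in green and the background level of each array as a grey line. AFB3B was above background on 4 arrays by 1 probe set and on 0 by the other, and TIR1C fell below background on suspensor replicate 2.

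The dimmer AFB3B probe set was below background on all 4 arrays. Its signal was 521 and 381 in suspensor, against 257 and 102 in embryo proper, the reverse direction of the brighter probe set. These stood between 0.117 and 0.563 times the background level, so no fold is given, and the probe set was not tested. The 2 AFB3B probe sets therefore did not give the same reading, and only the brighter could be used. Such pairs were common on these arrays: of 99 genes with a symbol, exactly 2 probe sets and at least 1 of them tested, 68 genes (68.7%) had another probe set below background on all 4 arrays.

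AFB3B was chosen by its difference between suspensor and embryo proper on these 4 arrays, with TIR1C added as the other named gene of its family, so that difference is given as a description and no p-value is printed for it or for TIR1C. The 8972 soybean probe sets that exceeded background on 2 or more arrays were fitted together in limma, and 2 of the 3 receptor probe sets were among them. Of all tested probe sets, 1.86% were called lower in suspensor at a limma adjusted p under 0.05. As AFB3B was chosen by this difference, no call is read from the fit for it or for TIR1C. In both of the tested receptor probe sets the regions did not overlap, with suspensor lower, as in 33.4% of tested probe sets. TIR1C would have passed the background filter on its embryo proper arrays alone. The median log2 difference of all tested probe sets was -0.18.

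Among all tested probe sets, 538 had a log2 difference as low as that of AFB3B or lower, and 107 (1.19% of them) as low as that of TIR1C or lower. Among the 428 tested probe sets with a gene symbol other than a placeholder, these numbers were 28 for AFB3B and 8 for TIR1C, each gene counted in its own number. The numbers for TIR1C rest on its suspensor signal below background. With all signals under background raised to that level, 136 of 8972 tested probe sets were as low as AFB3B or lower, at -1.90, and 160 as low as TIR1C or lower, at -1.82. Centring the arrays on the tested probe sets, or on those for Phytophthora and nematode, moved the median of all tested probe sets by 0.12 and -0.17 on the log2 scale. AFB3B then stood at -1.77 and -2.06, and TIR1C at -3.20 and -3.49.

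**Figure D2:**
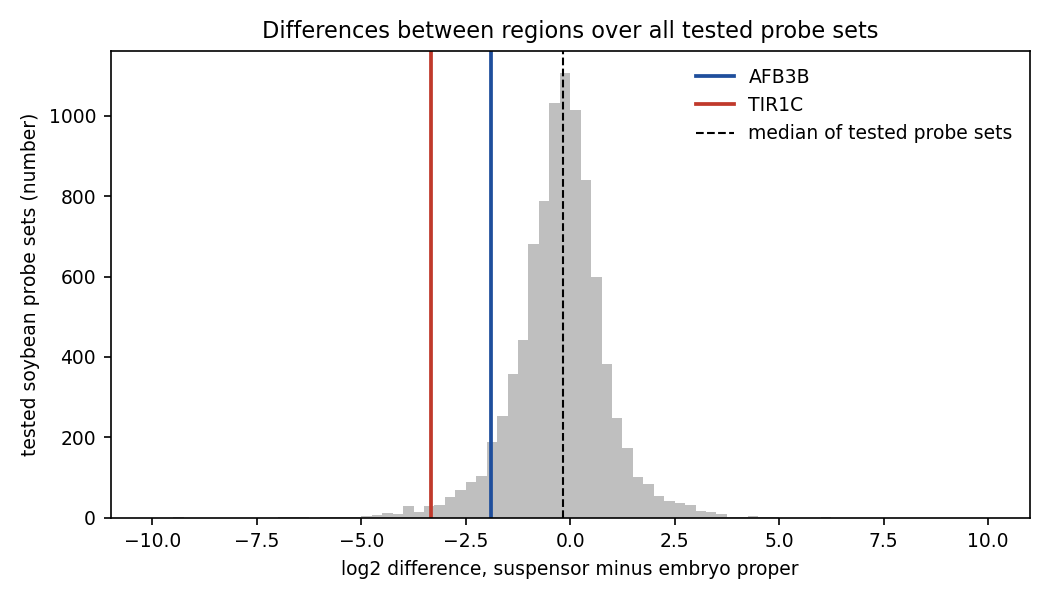
Number of tested soybean probe sets (y axis) by log2 difference, suspensor minus embryo proper (x axis), with AFB3B at -1.90 in blue, TIR1C at -3.32 in red and the median of all tested probe sets, -0.18, dashed. Both receptor genes lie in the left flank, where suspensor is lower, with 538 probe sets at or below AFB3B and 107 at or below TIR1C, whose value includes a suspensor signal below background.

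The spread between replicates enters any test of the difference between regions, so it may not be independent of how AFB3B was chosen. It is given as a description. For AFB3B, replicates differed by 0.36 on the log2 scale in suspensor and by 0.50 in embryo proper, where the median tested probe set differed by 0.56 in suspensor and 0.36 in embryo proper. AFB3B thus varied less than most probe sets in suspensor, at the 34.2 percentile of the replicate difference, and more than most in embryo proper, at the 64.1 percentile. For TIR1C, the replicates differed by 3.04 in suspensor and by 0.05 in embryo proper. TIR1C stood at the 97.1 percentile of the replicate difference in suspensor and at the 8.24 percentile in embryo proper. The suspensor value of TIR1C is set by the array on which it was below background: with that signal raised to the background level, the suspensor replicates differed by 0.034. The detection pattern of TIR1C, seen above background in embryo proper 1 and 2 and in suspensor replicate 1 but not 2, was found in 1075 tested probe sets, and its mirror, with suspensor replicate 2 but not 1, in 355.

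**Figure D3:**
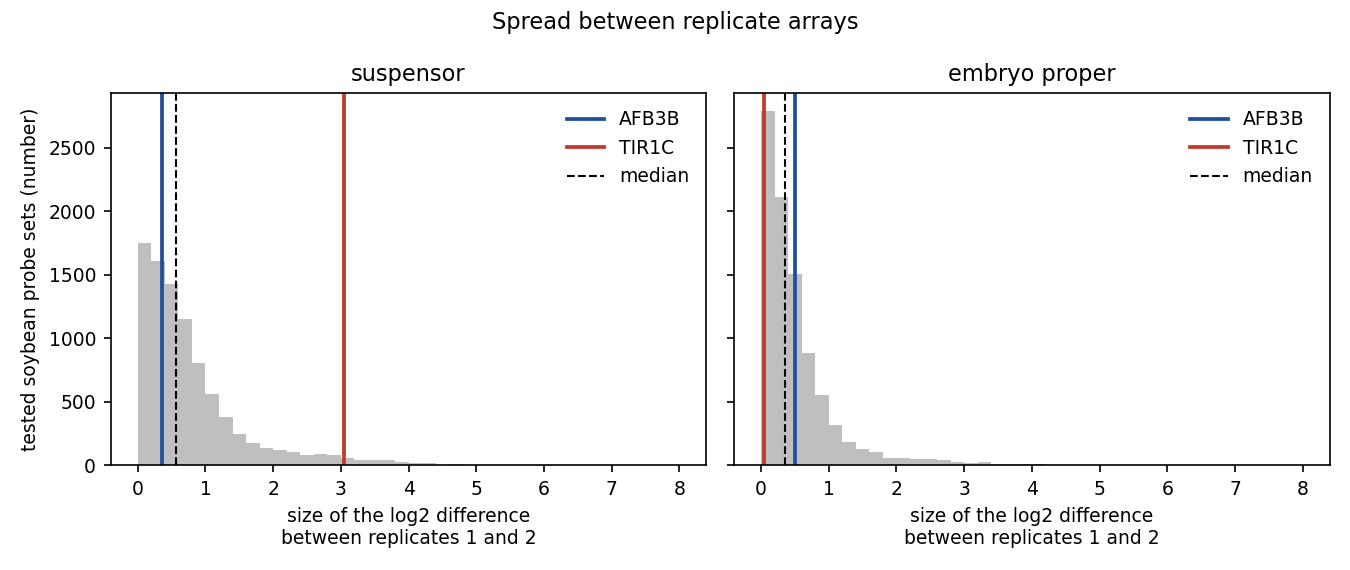
Number of tested soybean probe sets (y axis) by the size of the log2 difference between replicates 1 and 2 (x axis), for suspensor on the left and embryo proper on the right, with AFB3B in blue, TIR1C in red and the median dashed. TIR1C lies at 3.04 in the tail for suspensor, where 1 of its 2 signals was below background, and at 0.05 for embryo proper, while AFB3B lies at 0.36 and 0.50.

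The brighter AFB3B probe set kept a log2 difference between -2.15 and -1.65 under the 16 alternative settings. The lowest came without embryo proper replicate 1 and the highest without embryo proper replicate 2. TIR1C ranged from -4.84 to -1.80 under the 14 settings in which it was tested, and both ends came from leaving out a suspensor array, the lower with only a signal below background left. Suspensor was lower for both of these probe sets in every such setting. Since the regions did not overlap in either probe set, leaving out 1 array could not turn the sign. The dimmer AFB3B probe set was fitted only with no filter, where its difference was 1.36, from signals that were all below background.

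**Figure D4:**
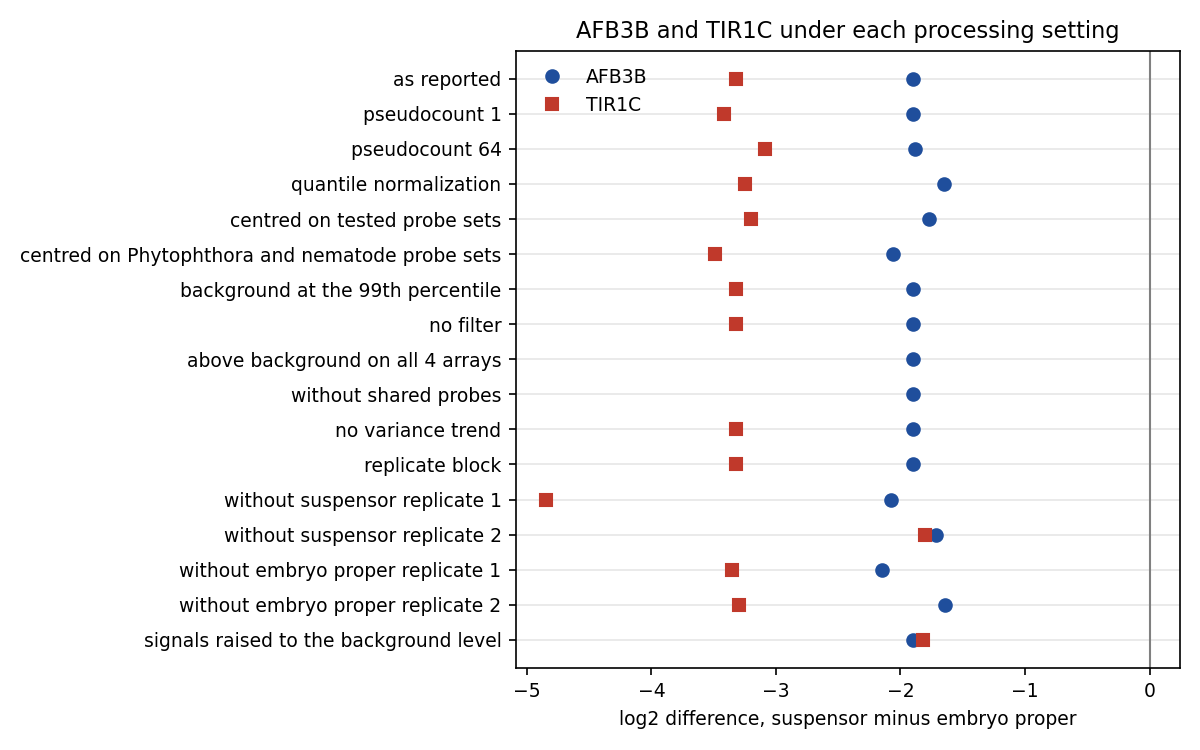
Log2 difference, suspensor minus embryo proper (x axis), of AFB3B (blue circles) and TIR1C (red squares) under each processing setting (rows). The brighter AFB3B probe set stays between -2.15 and -1.65, whereas TIR1C runs from -4.84 to -1.80. TIR1C has no point where its probe set was filtered out.

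The partners of the receptors in the auxin pathway were mostly out of reach of the annotation. Of 8 lists by symbol, for Aux/IAA repressors, auxin response factors, SCF subunits, other hormone or light F-box proteins, auxin transport, auxin synthesis, early auxin-response genes and other auxin-binding proteins, 4 matched no symbol, among them the auxin response factors and the SCF subunits. The other lists matched 8 genes with 14 probe sets, of which 3 passed the background filter. By limma 0 of these 3 passed at an adjusted p under 0.05, where 2.75% of all tested probe sets passed in either direction, and 1 had an unadjusted p under 0.05, as did 20.1% of all tested. Their median log2 difference was -0.98.

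LAX11, named after the AUX1/LAX carriers that bring auxin into cells, was the transport gene that was tested. Its signal was 128 and 1040 in suspensor, against 1254 and 1660 in embryo proper. Suspensor replicate 1 was below background and suspensor replicate 2 just above it, the reverse of TIR1C. The log2 difference of LAX11 was -1.91 ± 0.97 (SE) and did not pass (limma adjusted p = 0.32); it was -0.47 without suspensor replicate 1, -3.34 without suspensor replicate 2, where the signal left is below background, and -0.55 with signals raised to the background level. PIN2A, named after the PIN carriers that move auxin out of cells, was below background on all 4 arrays, at 473 and 390 in suspensor and 743 and 270 in embryo proper.

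Aux/IAA proteins are the co-receptors and substrates of TIR1/AFB proteins. AUX28, an Aux/IAA gene of soybean, had signals of 408 and 805 in suspensor, against 37 and 47 in embryo proper. The suspensor signals were the higher, but all 4 were below background, so no fold is given. AUX22, also an Aux/IAA gene, stood at 38 and 26 in suspensor and 22 and 28 in embryo proper, likewise below background. Of the genes named for an early response to auxin or an auxin-responsive family, AIR12 had signals of 860 and 1061 in suspensor, against 752 and 266 in embryo proper, above background on suspensor replicate 2 alone. LBD23, of the LOB-domain transcription factors, was below background throughout, with signals of at most 77.

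COI1, the F-box receptor for jasmonate and a relative of TIR1 in Arabidopsis, gave different readings by probe set. Of its 6 probe sets, 2 were tested. The brighter of these had signals of 2054 and 1390 in suspensor, against 3805 and 2946 in embryo proper, so the regions did not overlap. Its log2 difference was -0.98 ± 0.37 (SE) and did not pass (limma adjusted p = 0.21). The dimmer had signals of 828 and 1485 in suspensor, against 1184 and 357 in embryo proper. Here the regions overlapped, and suspensor replicate 1 and embryo proper replicate 2 were below background. The log2 difference of 0.75 ± 0.71 (SE) did not pass (limma adjusted p = 0.58). It was 0.20 with signals raised to the background level and turned to -0.092 without embryo proper replicate 2. ZTL1, an F-box protein of the blue-light and clock pathway, was below background on all 4 arrays by both of its probe sets.

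**Figure D5:**
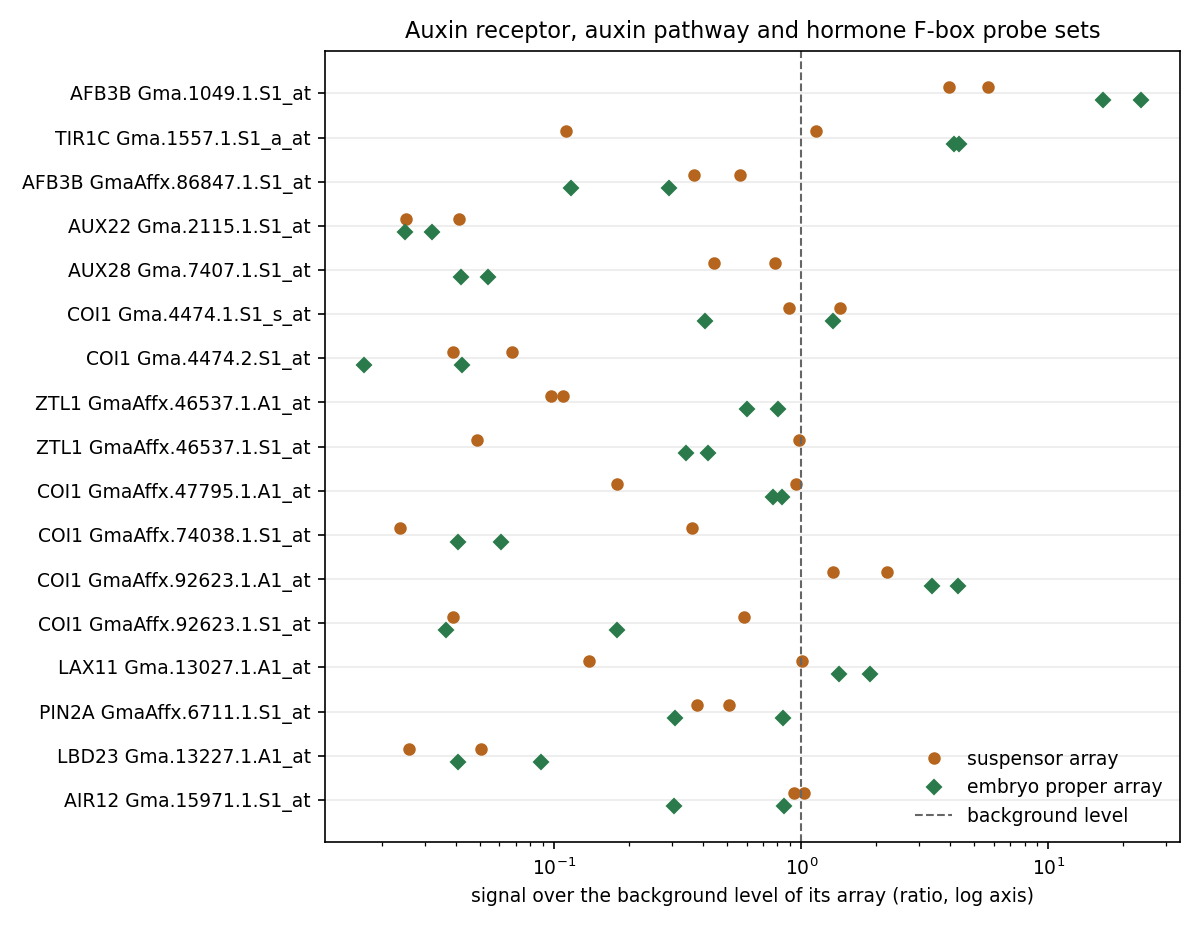
Signal divided by the background level of its array (x axis, log scale; dashed line at the background level) for each receptor, auxin pathway and hormone F-box probe set (rows), with suspensor arrays as brown circles and embryo proper arrays as green diamonds. AFB3B and 1 COI1 probe set have all 4 points to the right of the line, and the further AFB3B probe set, AUX22, AUX28 and PIN2A have all points to its left.

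Receptor and signalling genes of other hormones gave little to set beside the auxin receptors. Of 11 probe sets for 7 genes, namely the ethylene receptors ETR2 and EIN4, the brassinosteroid receptor BRI1B, the DELLA proteins GAI1 and GAI2 and the transcription factors BES1-4 and BES1-12, 1 was tested. BES1-4 had signals of 1938 and 2096 in suspensor, against 1706 and 1663 in embryo proper, with a log2 difference of 0.26 ± 0.35 (SE) that did not pass (limma adjusted p = 0.71). The other 10 were above background on 1 array at most.

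The patterns most like that of AFB3B over the 4 arrays were sought among 426 tested probe sets with a gene symbol, by the Euclidean distance between log2 signals after each was centred on its own mean. The nearest was SGF14f, a 14-3-3 protein, at a distance of 0.291, with signals of 3765 and 3212 in suspensor against 12754 and 13808 in embryo proper. GH1 followed at 0.339, with signals of 737 and 433 in suspensor, below background, against 1963 and 3041 in embryo proper. RLK3, a receptor-like kinase by its symbol, lay at 0.34, with 1840 and 1335 in suspensor against 3817 and 5727 in embryo proper. SHMT, a serine hydroxymethyltransferase, lay at 0.341, and CGS2, a cystathionine gamma-synthase, at 0.47. TIR1C lay at 2.39 from AFB3B, a distance that includes its suspensor signal below background. These distances rest on 4 arrays that all probe sets share.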

How the data were processed

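Each of 61170 probe sets has 1 deposited intensity per array, on a linear scale. Per the submitters' processing notes the authors used GCOS 1.3; the sources used here name neither its algorithm nor a detection call. The trimmed mean (2% off either end) was 500.0 on every deposited array, and the authors' scale was kept. The background level was the 95th percentile of 23350 Phytophthora and nematode probe sets on each array, 925 and 1034 in suspensor and 881 and 873 in embryo proper. From the deposited intensities, log2(intensity + 16) was computed and fitted in limma 3.58.1 (R 4.3.3) as suspensor minus embryo proper, using lmFit and eBayes with a variance trend; p-values were adjusted by Benjamini-Hochberg over 8972 probe sets. Adding 16 shrinks changes of dim probe sets somewhat: TIR1C stood at -3.42 with 1 added in its place. Raising signals under background to that level moved TIR1C from -3.32 to -1.82 and LAX11 from -1.91 to -0.55. The size of such differences therefore depends on signals below background, and 2 arrays per region limit the precision.

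The members and gene lists were chosen with earlier results of these data known. Named were all receptor probe sets, tested genes of each pathway list, further list members as values, and the 5 patterns nearest to AFB3B. Symbols came from the platform annotation. The reference table lists its 34063 bean genes by locus tag, with 0 other symbols, so it could not be searched for these genes and no position or sequence is given. The results were recomputed under 15 settings listed in advance and 1 added later.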

Additional observations from a re-analysis of the deposited data

How the results depend on the processing

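Probe sets called lower and higher in suspensor numbered 167 and 80 as reported. Quantile normalization gave 239 and 198, centring on tested probe sets 196 and 129, and centring on those for Phytophthora and nematode 154 and 48. Background at the 99th percentile gave 293 and 134, and detection on all 4 arrays 334 and 192, where fewer probe sets are tested. They were 71 and 35 without shared probes, 66 and 21 without a variance trend, and 366 and 186 when signals were raised to the background level, a setting chosen after seeing the data. Leaving out 1 array gave 3 to 1054 lower and 3 to 153 higher, with the lone array assumed to vary like the other region. The counts were lowest without embryo proper replicate 2, at 3 and 3, and without embryo proper replicate 1, at 7 and 7; they were 1054 and 153 without suspensor replicate 1 and 314 and 145 without suspensor replicate 2. The replicate block gave 292 and 138. Deviations of same-numbered arrays correlated at -0.024 across probe sets, and the labels do not explain the numbers, so the arrays were not treated as paired. Of the listed pathway probe sets outside the receptors, 2, 4 or, with no filter, 25 were tested. By limma 0 were called in any alternative that kept all 4 arrays. As reported, 2.75% of all tested probe sets were called in either direction. An unadjusted limma p under 0.05 was then seen in 1 of the 4 listed probe sets, and in 20.1% of all tested. The COI1 difference of 0.75 turned to -0.092 without embryo proper replicate 2, and other values of that probe set reached 1.59. Why counts and values changed between settings was not tested. Signal over background limits the rest, with 24694 soybean probe sets above it on no array.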
